A study of Mus musculus with 4 samples.

Results

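The genes described here are subunits of oxidative phosphorylation that are encoded in the nucleus, with the assembly factors that carry the same name stems. Cyc1, a subunit of complex III without such a stem, is not among them and belongs to a separate list given below. They were taken by symbol (Nduf, Uqcr, Sdh, Cox4 to Cox8 and Atp5, without pseudogenes), which gave 96 of the 32285 genes in the RNA matrices. By role these are 7 core subunits, 29 accessory subunits and 8 assembly factors of complex I, 4 subunits and 4 assembly factors of complex II, 8 genes of complex III, 19 of complex IV and 17 of ATP synthase. RNA and open chromatin had been read from the same nuclei (10x Multiome) of liver cells of C57BL/6J mice, sorted as living CD45+ CD64- CD11c+ cells. The D0 group had been fed no DDC and the D5 group had for 5 days eaten food that contained 0.1% DDC (3,5-diethoxycarbonyl-1,4-dihydrocollidine), a compound that damages bile ducts, and the mice of both groups carried no transgene or deletion according to the labels. Each day was 1 library, and whether it pooled several mice is not given in the sources used here, so no test across samples could be made and the effect of the diet cannot be told apart from the difference between libraries.

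Oxidative phosphorylation moves electrons from NADH through complex I, and from succinate through complex II, to complex III and then to oxygen at complex IV. Complexes I, III and IV pump protons across the inner mitochondrial membrane, and ATP synthase uses the resulting gradient to make ATP. Most subunits are encoded in the nucleus and imported, while a small set of core subunits is encoded in mitochondrial DNA (the mt- genes), and complex II has no subunit of mitochondrial origin. Resting dendritic cells are known to rely on this pathway and to shift towards glycolysis on strong activation.

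The libraries held 44496348 unique molecular identifiers (UMIs, counted RNA molecules) in 16260 barcodes at D0 and 94374499 in 27873 at D5, and 591 barcode sequences occurred in both. After filtering, 10982 and 19832 nuclei remained, with medians of 1732 and 2556 UMIs. Nuclei were grouped into 10 classes named from marker genes, hence the ending "-like": type 1 and type 2 conventional dendritic cells (cDC1-like, with a cycling cluster, and cDC2-like), dendritic cell precursors (preDC-like), migratory Ccr7+ DC-like cells, plasmacytoid dendritic cells (pDC-like), and NK cell-, T cell-, macrophage- and nonclassical monocyte-like cells. Nuclei of unnamed clusters are in none of these classes. The largest unnamed cluster at D5 held 325 nuclei at D0 and 2770 at D5. Its nearest marker list was that of cDC2, with 0 of these markers raised at least 2-fold. The cDC2-like values therefore leave out these nuclei. Ptprc (CD45) and Itgax (CD11c) RNA was present in every class. Fcgr1, which encodes the CD64 that the sort had excluded, stood at 42.3 CPM at D0 and 79.2 CPM at D5 in macrophage-like nuclei and at most at 22.8 CPM elsewhere. The preDC-like cluster carried more RNA of the pDC marker list (7450 CPM at D0) than of its own list (2330 CPM), and no result below rests on it alone. T cell-like nuclei likewise carried more RNA of the NK cell marker list (5980 CPM at D0) than of the T cell list (3520 CPM).

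Levels are given in CPM, the counts of a gene in every 1000000 UMIs of all nuclei of a class added together, and differences between days are log2 ratios of D5 over D0. Each bracketed interval is a 95% interval that covers the counting of molecules only, not the variation between animals or libraries. A gene was counted as higher or lower when the higher level exceeded the lower by at least 25% and the gene averaged at least 10 CPM over both days. Genes ranked by their ratio within a class, or followed over all classes, also had at least 100 UMIs there over both days.

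All 10 classes had more RNA of the nuclear-encoded genes at D5 than at D0, by a factor of 1.08 in macrophage-like nuclei and of 1.19 to 1.43 in the others. The summed level in cDC2-like nuclei was 11547 CPM at D0 (11434 to 11660) and 15058 CPM at D5 (14998 to 15119), a log2 ratio of 0.38 (0.37 to 0.40). In cDC1-like nuclei it was 11356 CPM at D0 and 15235 CPM at D5, a log2 ratio of 0.42 (0.41 to 0.44). The intervals of the days did not overlap in either class. Cycling cDC1-like nuclei started higher, at 13432 CPM, and reached 15947 CPM, a log2 ratio of 0.25 (0.21 to 0.28). Ccr7+ DC-like nuclei went from 10685 to 13739 CPM (0.36, 0.33 to 0.40), and preDC-like nuclei from 11732 to 14681 CPM (0.32, 0.28 to 0.37).

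The pDC-like class had the lowest sum of the 10 classes at either day, at D0 8087 CPM and at D5 11300 CPM, with a log2 ratio of 0.48 (0.46 to 0.50). Nonclassical monocyte-like nuclei, of which there were 101 and 177, stood at 9667 and 13832 CPM, a log2 ratio of 0.52 (0.43 to 0.61). The NK cell-like sum was 13033 CPM at D0 and 17012 CPM at D5 (0.38, 0.36 to 0.41). T cell-like nuclei had 14137 and 17798 CPM (0.33, 0.29 to 0.37), the highest level of any class at D5. The macrophage-like sum was highest at D0, where its 14178 CPM and the T cell-like level had overlapping intervals, and it differed least between days, with 15264 CPM at D5 and a log2 ratio of 0.11 (0.08 to 0.13). Between cDC1-like and cDC2-like nuclei the log2 difference of the sums was -0.02 (-0.04 to -0.00) at D0 and 0.02 (0.01 to 0.03) at D5, and its sign turned with the scaling and the clustering.

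**Figure D1:**
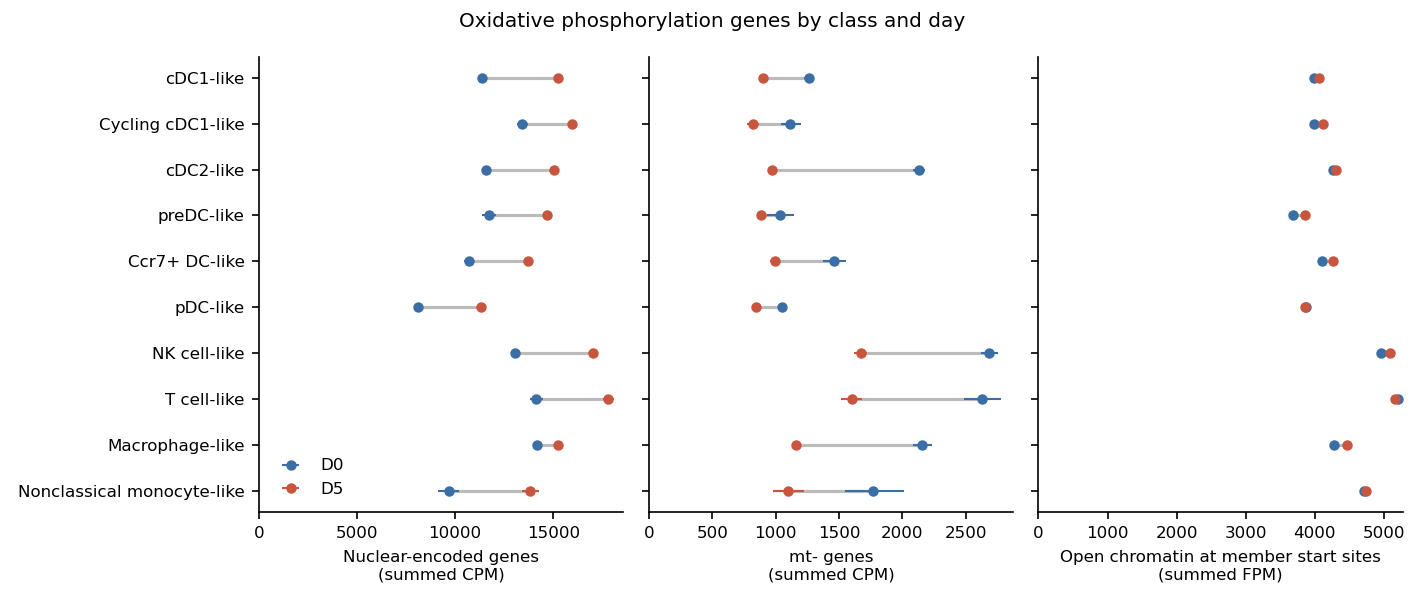
Summed levels in 10 cell classes at D0 (blue) and D5 (red), 1 library a day: nuclear-encoded genes in CPM (left), the 13 mt- genes in CPM (middle), and fragments in every 1000000 (FPM) at the start sites of 92 of the nuclear-encoded genes (right). Horizontal bars on the RNA points are 95% counting intervals. Nuclear-encoded RNA lies further right at D5 in every class, mt- RNA further left, and the open chromatin points of the days nearly coincide.

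Single nuclei also had more of this RNA at D5. The median share of a nucleus's UMIs that came from these genes was 1.11% at D0 and 1.49% at D5 among cDC2-like nuclei, with quartiles of 0.909% and 1.34% at D0 and of 1.27% and 1.72% at D5. For pDC-like nuclei the medians were 0.798% and 1.12%, and for macrophage-like nuclei 1.30% and 1.52%, relatively farther apart than the summed levels of that class. Every nucleus held at least 1 UMI of these genes.

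Free RNA was measured in barcodes with 10 to 100 UMIs. There were 28427 such barcodes with 432827 UMIs at D0 and 205836 with 3019809 UMIs at D5, a larger pool. This pool held 26244 CPM of the nuclear-encoded genes at D0 and 25941 CPM at D5 (log2 ratio -0.02, -0.05 to 0.01), above the level in every class and without the difference between days that the classes had. The part of free RNA in the class levels, and of the larger pool at D5, was not tested.

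Other gene lists also differed between days. The cytosolic ribosomal protein genes were higher at D5 in all 10 classes, with log2 ratios of 0.52 to 0.85, and the mitochondrial ribosomal protein genes stood at 2630 CPM and 3497 CPM in cDC2-like nuclei (0.41, 0.38 to 0.44). Malat1 and Neat1, RNAs that stay in the nucleus, summed to 16272 CPM at D0 and 7873 CPM at D5 in cDC2-like nuclei, a log2 ratio of -1.05 (-1.06 to -1.03). A list of 10 hepatocyte genes, chosen to follow free RNA, had log2 ratios of -1.23 in cDC2-like, -1.91 in macrophage-like and -0.25 in pDC-like nuclei. It was above its D0 level only in nonclassical monocyte-like nuclei, which held none of it at D0. The part of such RNA in the difference between days was not tested. Across the 1730 cDC2-like nuclei of D0, the share of the oxidative phosphorylation genes had a Spearman correlation of 0.36 with the share of cytosolic ribosomal protein RNA and of -0.33 with that of Malat1 and Neat1, and of 0.01 with that of mt- RNA. Over the 10 classes at D0 these correlations ran from 0.24 (T cell-like) to 0.61 (cDC1-like), from -0.16 (nonclassical monocyte-like) to -0.54 (cDC1-like), and from 0.01 (cDC2-like) to 0.23 (macrophage-like). These shares come from the same nuclei, library and total, and how far the composition of the nuclear RNA entered the difference between days was not tested. Relative to the cytosolic ribosomal protein genes, the oxidative phosphorylation genes were lower at D5, with 0.0863 UMIs for each ribosomal protein UMI at D0 and 0.0770 at D5 in cDC2-like nuclei. Scaled instead by TMM factors, which are set by genes near the middle of the distribution, every log2 ratio shifted upwards by 0.14 to 0.32 depending on the class, so that a difference given below as lower and smaller than this shift would turn higher.

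The direction in which the sums of neighbouring metabolic pathways differed depended on the list, the class and the scaling. The citrate cycle sum was above its D0 level in 1 of 10 classes in CPM and in 9 under TMM scaling, with log2 ratios in CPM from -0.26 in macrophage-like to 0.19 in nonclassical monocyte-like nuclei. The glycolysis sum was above it in 6 of 10 classes in CPM and in 9 under TMM scaling. The sum of a list of regulators was above it in 0 of 10 in CPM and in 9 under TMM scaling. The 17 citrate cycle genes, whose enzymes supply NADH and succinate, summed to 1129 CPM at D0 and 1087 CPM at D5 in cDC2-like nuclei (-0.06, -0.11 to -0.01), and TMM scaling turned this to 0.19. The 18 glycolysis genes gave 2628 and 2421 CPM there (-0.12, -0.15 to -0.09, and 0.13 under TMM), and 3674 and 2647 CPM in macrophage-like nuclei (-0.47, -0.52 to -0.43, and -0.16 under TMM). The 16 regulators include genes of mitochondrial biogenesis such as Ppargc1a, Nrf1, Gabpa and Tfam, but also Hif1a and Myc. The part of each gene in the sum is not given, so the sum does not stand for biogenesis alone. It was at 541 and 490 CPM in cDC2-like nuclei (-0.14, -0.22 to -0.07, and 0.11 under TMM) and at 875 and 525 CPM in macrophage-like nuclei (-0.74, -0.84 to -0.63, and -0.43 under TMM). A list of 34 other respiratory chain genes holds mostly assembly factors, with cytochrome c and the complex III subunit Cyc1. It was at 1351 and 1669 CPM in cDC2-like nuclei (0.31, 0.26 to 0.35) and above its D0 level in 9 of 10 classes in CPM and in 10 under TMM scaling. Of the 25 genes that passed the minimum in cDC2-like nuclei 7 were higher (13.9% of all genes) and 1 lower (28.6% of all genes). This list includes AA467197, described below, which alone went from 111 to 233 CPM in cDC2-like nuclei and made up a large part of the list's difference.

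Of the 96 genes, 86 to 89 passed the minimum level in the 8 classes that had at least 500000 UMIs at each day and were read gene by gene. The genes that did not are Cox4i2, Cox7a1, Cox7b2, Cox8b, Cox8c and Ndufa4l2, which are isoforms known from other tissues and were at or near 0 in each class, and in some classes a few of Cox6b2, Ndufaf1, Ndufaf5, Ndufaf6 and Sdhaf3. In cDC2-like nuclei 48 of 86 genes were higher at D5, against 13.9% of all genes, and 0 were lower, against 28.6%. The median log2 ratio was 0.35 for the 86 genes and -0.12 for the 8036 genes measured there. The cDC1-like class had 55 of 87 higher (11.9% of all genes) and 3 lower (35.7%). Cycling cDC1-like nuclei had 29 of 89 higher (14.1%) and 3 lower (35.4%). For Ccr7+ DC-like nuclei the counts were 48 of 86 higher (21.7%) and 3 lower (30.4%). The pDC-like class had the most in CPM, with 59 of 87 higher (11.8%) and 1 lower (22.3%). NK cell-like nuclei had 48 of 86 higher (13.5%) and 1 lower (34.5%), and T cell-like nuclei 43 of 89 higher (19.7%) and 0 lower (38.6%). Macrophage-like nuclei had the fewest under either scaling, with 18 of 86 higher (12.3%) and 10 lower (39.4%), and a median log2 ratio of 0.09, against -0.21 for all genes. Under TMM scaling these counts became 51 higher (31.3% of all genes) and 0 lower (17.6%) in macrophage-like nuclei and 78 higher (31.9%) and 0 lower (12.5%) in cDC2-like nuclei. In the 6 other classes they were then 61 to 79 higher (19.6% to 32.1%) and 0 to 2 lower (11.7% to 24.9%).

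Of the 72 genes that averaged at least 10 CPM and had at least 100 UMIs in each of the 8 classes, 42 had a log2 ratio above 0 in every class, against 17.7% of the 2248 genes that met the same minimum, and 65 under TMM scaling, against 31.5%. Sdha was below 0 in every class, apart from the cDC2-like class under TMM scaling. The interval lay above 0 in every class for 11 genes: Ndufa6, Ndufa7 and Ndufb11 of complex I, Uqcrh of complex III, Cox4i1, Cox5b and Cox7a2l of complex IV, and Atp5g1, Atp5g2, Atp5h and Atp5l of ATP synthase. The share of all genes that met this interval condition was not counted, so the 11 genes are only listed.

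**Figure D2:**
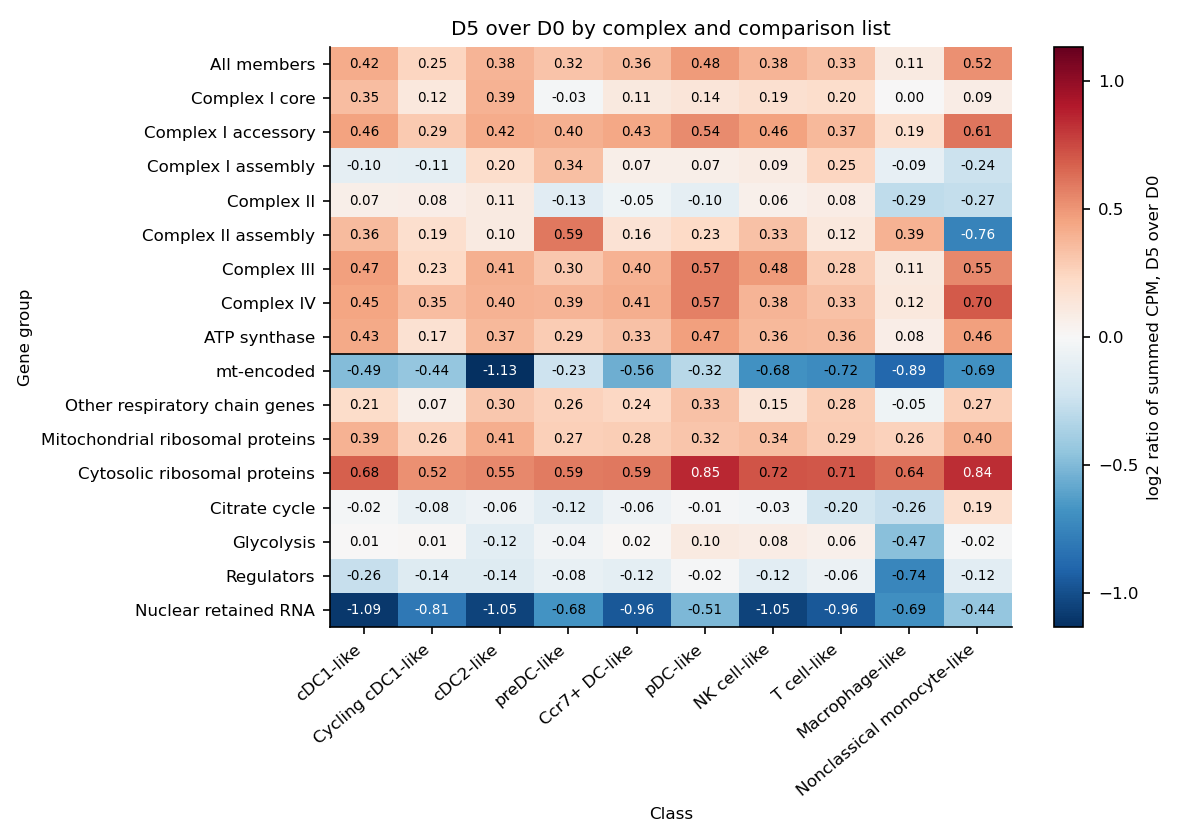
Log2 ratio of summed CPM, D5 over D0, for each complex and assembly group (above the line) and for comparison lists (below it) in 10 cell classes; red is higher and blue lower at D5. Accessory subunits of complex I, complexes III and IV and ATP synthase are higher in every class, the subunits of complex II range from -0.29 in macrophage-like (0.02 under TMM scaling) to 0.11 in cDC2-like nuclei, and the mt- genes and the nuclear retained RNAs are lower throughout in CPM, which TMM scaling turned only for the mt- genes of preDC-like nuclei.

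The complexes did not all differ by the same factor. In cDC2-like nuclei the log2 ratio of the sum was 0.39 (0.31 to 0.48) for the core of complex I, 0.42 (0.39 to 0.46) for its accessory subunits, 0.41 (0.36 to 0.46) for complex III, 0.40 (0.37 to 0.42) for complex IV and 0.37 (0.34 to 0.40) for ATP synthase. For complex II it was 0.11 (0.01 to 0.21), from 295 to 317 CPM, with an interval that did not reach those of the other complexes. In pDC-like nuclei the accessory subunits of complex I had 0.54 (0.49 to 0.58), complex III 0.57 (0.51 to 0.64), complex IV 0.57 (0.53 to 0.61) and ATP synthase 0.47 (0.43 to 0.50). The core of complex I stood at only 0.14 (0.03 to 0.24) there, and complex II at -0.10 (-0.22 to 0.02), which became 0.05 under TMM scaling. The macrophage-like class had 0.19 (0.14 to 0.24) for the accessory subunits of complex I, 0.00 (-0.12 to 0.13) for its core, and -0.29 (-0.42 to -0.15) for complex II, from 422 to 346 CPM, or 0.02 under TMM scaling.

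Among the core subunits of complex I, which hold the flavin and the iron-sulfur clusters that carry electrons from NADH, 5 of 7 were higher in cDC2-like nuclei (13.9% of all genes). In pDC-like nuclei 1 of 7 was higher (11.8% of all genes), a share near that of all genes. In macrophage-like nuclei 2 of 7 were higher (12.3%) and 2 lower (39.4%). Ndufv2, a subunit of the NADH-binding module, was at 68.3 CPM at D0 and 103 CPM at D5 in cDC2-like nuclei (0.60, 0.40 to 0.80), and was the only core subunit above 0 in each of the 8 classes. For Ndufs7, which holds an iron-sulfur cluster near the site where quinone is reduced, the cDC2-like levels were 67.5 and 86.4 CPM (0.36, 0.15 to 0.56). Ndufv1, which binds NADH, and Ndufs1, the largest iron-sulfur subunit, reached the lowest ratios of the core subunits over the 8 classes. Ndufv1 stood at 42.7 and 46.2 CPM in cDC2-like nuclei (0.12, -0.14 to 0.38) and at 56.6 and 41.8 CPM in macrophage-like nuclei (-0.44, -0.83 to -0.04). Ndufs1 was at 27.1 and 33.9 CPM in cDC2-like nuclei (0.32, 0.01 to 0.66), while in NK cell-like nuclei it was at 47.1 and 33.0 CPM (-0.51, -0.95 to -0.08).

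The accessory subunits surround the core and stabilise it, and 19 of 29 were higher in cDC2-like (13.9% of all genes) and 24 of 29 in pDC-like nuclei (11.8% of all genes). Ndufa6 (chr15:82350139-82354291, build GRCm38.p6), a LYR-motif protein that holds an acyl carrier protein on the complex, had the largest log2 ratio in 4 of the 8 classes. Its levels at D0 and D5 were 182 and 308 CPM in cDC2-like nuclei (0.76, 0.64 to 0.88), 166 and 280 CPM in cDC1-like nuclei (0.76, 0.63 to 0.89), and 148 and 255 CPM in macrophage-like nuclei (0.79, 0.58 to 1.004). In pDC-like nuclei, where it was lowest at D0, it went from 72.4 to 182 CPM (1.33, 1.13 to 1.53). NK cell-like nuclei had 124 and 254 CPM (1.04, 0.83 to 1.248), and T cell-like nuclei 102 and 233 CPM (1.20, 0.75 to 1.67). The spread of Ndufa6 between the highest and lowest class was 2.51-fold at D0 and 1.69-fold at D5. In the free RNA pool it stood at 356 and 494 CPM.

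Ndufa11, a membrane arm subunit, was at 62.8 CPM at D0 and 107 CPM at D5 in cDC2-like nuclei (0.76, 0.56 to 0.97) and at 48.9 and 93.9 CPM in pDC-like nuclei (0.94, 0.68 to 1.20). Ndufb9, another LYR-motif subunit, had 63.7 and 104 CPM in cDC2-like nuclei (0.71, 0.51 to 0.92). Ndufb10 was among the 5 highest in NK cell-like (80.4 and 140 CPM), T cell-like (67.7 and 154 CPM) and macrophage-like nuclei (82.6 and 123 CPM). The summed level of the assembly factors of complex I in cDC2-like nuclei was 145 and 167 CPM (0.20, 0.06 to 0.34). Ndufaf7, a methyltransferase among these factors, had the lowest value of cDC1-like nuclei, with 38.0 CPM at D0 and 21.8 CPM at D5 (-0.81, -1.12 to -0.48), while in cDC2-like nuclei it was at 34.9 and 35.3 CPM.

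**Figure D3:**
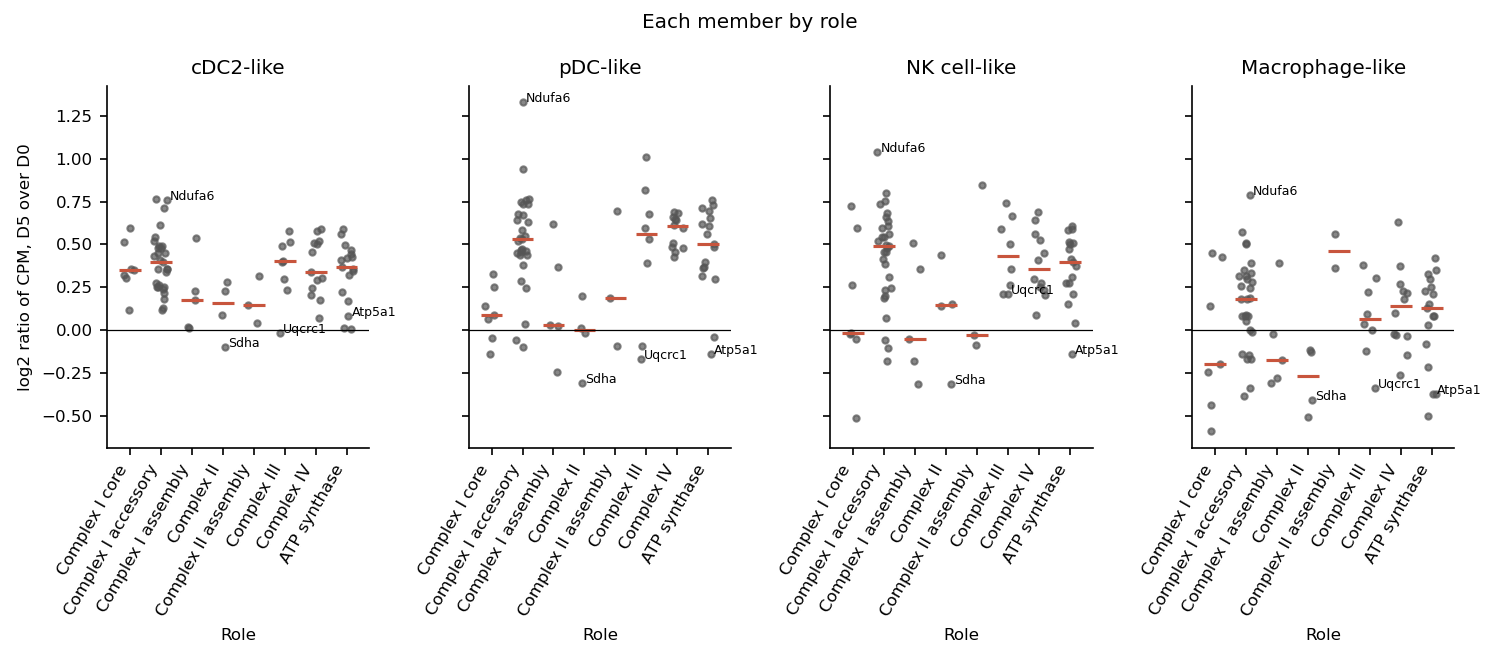
Log2 ratio of CPM, D5 over D0, for each gene of at least 10 CPM on average and 100 UMIs (points), by role, in 4 classes, with the median of each role as a red bar. Ndufa6 lies at or near the top in each panel, from 0.76 in cDC2-like to 1.33 in pDC-like nuclei, and Sdha lies below 0 in each, from -0.10 to -0.41.

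Complex II, succinate dehydrogenase, had 0 of 4 subunits higher (13.9% of all genes) and 0 lower (28.6%) in cDC2-like nuclei, and with 4 genes these counts are near the shares of all genes. Its catalytic flavoprotein Sdha (chr13:74322255-74350240) was at 94.8 CPM at D0 and 88.5 CPM at D5 there (-0.10, -0.28 to 0.08, and 0.15 under TMM). Lower levels with intervals below 0 were found in cDC1-like nuclei (118 and 89.6 CPM, -0.40, -0.57 to -0.23), pDC-like nuclei (134 and 109 CPM, -0.31, -0.50 to -0.12), NK cell-like nuclei (126 and 102 CPM, -0.31, -0.57 to -0.06) and macrophage-like nuclei (114 and 86.3 CPM, -0.41, -0.68 to -0.13). Under TMM scaling these 4 values were -0.08, -0.16, -0.10 and -0.10. The iron-sulfur subunit Sdhb differed in the other direction in cDC2-like nuclei, with 92.5 and 108 CPM (0.23, 0.05 to 0.40). Sdhd, a membrane anchor of the complex, was at 64.0 and 68.0 CPM in cDC2-like nuclei and at 106 and 74.6 CPM in macrophage-like nuclei (-0.51, -0.79 to -0.22).

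Complex III passes electrons from ubiquinol to cytochrome c. In cDC2-like and pDC-like nuclei its small subunits had larger ratios than its 2 core proteins Uqcrc1 and Uqcrc2. This order did not hold in every class. Uqcrc2 had 0.63 and Uqcrh 0.45 in Ccr7+ DC-like nuclei, and Uqcrc1 had 0.30 and Uqcrq 0.13 in T cell-like nuclei. Uqcr10 was at 75.7 CPM at D0 and 153 CPM at D5 in pDC-like nuclei (1.01, 0.81 to 1.22), at 101 and 178 CPM in cDC1-like nuclei (0.81, 0.65 to 0.98) and at 105 and 157 CPM in cDC2-like nuclei. Uqcrh, the hinge protein that helps cytochrome c dock, had 180 and 318 CPM in pDC-like nuclei (0.82, 0.68 to 0.95). For Uqcrfs1, the Rieske iron-sulfur protein, cDC2-like nuclei had 84.2 and 111 CPM (0.40, 0.22 to 0.58) and macrophage-like nuclei 107 and 109 CPM. The large core protein Uqcrc1 had nearly the same level at both days in cDC2-like nuclei, 97.2 and 96.0 CPM (-0.02, -0.19 to 0.16), and in cDC1-like nuclei, 96.7 and 96.4 CPM. Elsewhere it differed more, from 127 and 100 CPM in macrophage-like nuclei (-0.34, -0.59 to -0.08) to a log2 ratio of 0.30 in T cell-like nuclei.

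Ndufa11 and Uqcrc1 were near opposite ends of the cDC2-like order, yet their promoters share a word, which is why both are shown. The windows run from 250 bases before to 50 after the RefSeq start (build GRCm38.p6, sequences from RefSeq, plus strand for both genes), and the capitals mark the letters of an NRF1 site (GCGCATGCG, a factor known to bind promoters of respiratory genes), found on both strands where they overlap. The windows are chr17:56717512-56717811 and chr9:108936398-108936697.
Ndufa11: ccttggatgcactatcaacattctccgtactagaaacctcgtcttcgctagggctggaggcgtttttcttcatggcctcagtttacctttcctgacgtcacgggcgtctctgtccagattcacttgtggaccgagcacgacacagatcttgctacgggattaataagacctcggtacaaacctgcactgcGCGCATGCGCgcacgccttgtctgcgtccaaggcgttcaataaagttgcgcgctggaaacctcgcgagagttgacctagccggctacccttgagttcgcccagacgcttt
Uqcrc1: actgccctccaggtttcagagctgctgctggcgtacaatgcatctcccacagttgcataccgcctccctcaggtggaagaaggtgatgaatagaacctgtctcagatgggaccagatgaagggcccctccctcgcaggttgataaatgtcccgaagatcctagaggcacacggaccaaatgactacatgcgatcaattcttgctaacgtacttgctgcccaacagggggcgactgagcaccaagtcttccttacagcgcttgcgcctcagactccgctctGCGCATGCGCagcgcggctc
Promoter windows were matched for 80 of the 96 genes, and a gene with several windows was counted once. The NRF1 letters were present in 10 genes (12.5%, against 1.95% of all 27025 genes with a window), the ETS or GABP letters ACCGGAAG in 8 (10.0%, against 2.60%) and the YY1 letters AAGATGGCG in 8 (10.0%, against 1.64%), each searched on both strands. Among those of the 72 genes above that have a window, genes with and without the NRF1 letters had median log2 ratios of 0.33 (8 genes) and 0.38 (54 genes) in cDC2-like nuclei and of 0.53 and 0.49 in pDC-like nuclei. A match of letters is a description and shows no binding.

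Complex IV hands electrons to oxygen. Of its 13 genes above the minimum in cDC2-like nuclei 7 were higher (13.9% of all genes), and in pDC-like nuclei all 12 above the minimum were (11.8% of all genes). Cox4i1, the ubiquitous form of a regulatory subunit, stood at 546 CPM (D0) and 817 CPM (D5) in cDC2-like nuclei (0.58, 0.51 to 0.65) and 305 and 477 CPM in pDC-like nuclei (0.65, 0.54 to 0.75). Its isoform Cox4i2 had 2 UMIs at D0 and 1 at D5 among the cDC2-like nuclei. Cox5a had 233 and 331 CPM there (0.51, 0.40 to 0.62). Cox7a2l had the second highest ratio of macrophage-like nuclei, with 234 and 362 CPM (0.63, 0.46 to 0.80), and 256 and 386 CPM in cDC2-like nuclei (0.59, 0.49 to 0.69). Its paralog Cox7a2 was at 160 and 196 CPM in cDC2-like nuclei (0.29, 0.16 to 0.43), an interval that did not reach that of Cox7a2l, and the muscle form Cox7a1 had only 6 and 27 UMIs.

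Cox8a separated the macrophage-like nuclei from the rest. It stood at 658 CPM at D0 and 549 CPM at D5 there (-0.26, -0.37 to -0.15, and 0.05 under TMM), and at 454 and 522 CPM in cDC2-like nuclei (0.20, 0.12 to 0.28), with intervals above 0 in all 7 other classes. Cox6b1 followed a similar order, with 371 and 363 CPM in macrophage-like nuclei (-0.03, -0.17 to 0.11) and 174 and 275 CPM in pDC-like nuclei (0.66, 0.52 to 0.80). Ndufa4, once assigned to complex I and now to complex IV, was at 199 and 246 CPM in cDC2-like nuclei (0.30, 0.19 to 0.42). Ndufa4l2, its hypoxia-induced paralog, was at or near 0. AA467197, the mouse Nmes1 gene and another paralog of Ndufa4, is not among the 96 genes but belongs to the list of other respiratory chain genes. It was at 111 CPM at D0 and 233 CPM at D5 in cDC2-like nuclei (1.07, 0.92 to 1.22), at 22.2 and 70.4 CPM in pDC-like nuclei (1.67, 1.31 to 2.03) and at 207 and 143 CPM in macrophage-like nuclei (-0.54, -0.74 to -0.33).

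ATP synthase is made of a catalytic head, a stalk and a membrane ring. In cDC2-like nuclei the alpha and beta subunits of the head had small ratios, and several genes of the ring and the stalk larger ones. Atp5a1, the alpha subunit, stood at 251 CPM (D0) and 265 CPM (D5) in cDC2-like nuclei (0.08, -0.02 to 0.19), 251 and 228 CPM in pDC-like nuclei (-0.14, -0.27 to -0.00) and 341 and 264 CPM in macrophage-like nuclei (-0.37, -0.53 to -0.21). Atp5b, the catalytic beta subunit, had 268 and 302 CPM (0.17, 0.07 to 0.27), 208 and 202 CPM (-0.04, -0.19 to 0.10) and 390 and 302 CPM (-0.37, -0.51 to -0.22) in the same 3 classes. Atp5h, a subunit of the peripheral stalk, had 294 and 442 CPM in cDC2-like nuclei (0.59, 0.49 to 0.69) and 193 and 327 CPM in pDC-like nuclei (0.76, 0.63 to 0.89).

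Atp5g1, Atp5g2 and Atp5g3 encode the same mature ring subunit. Atp5g2 was at 281 and 415 CPM in cDC2-like nuclei (0.56, 0.47 to 0.66) and Atp5g1 at 148 and 209 CPM (0.49, 0.36 to 0.63). Atp5g3 differed less there, with 122 and 142 CPM (0.22, 0.07 to 0.38), and in macrophage-like nuclei it stood at 177 and 152 CPM (-0.22, -0.43 to -0.00). Atp5k, the small membrane subunit e, was at 112 and 113 CPM in cDC2-like nuclei and at 173 and 122 CPM in macrophage-like nuclei (-0.50, -0.72 to -0.28).

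The mt- genes went the other way. Their sum was 2128 CPM at D0 and 970 CPM at D5 in cDC2-like nuclei, a log2 ratio of -1.13 (-1.18 to -1.09), and it was lower at D5 in all 10 classes, with preDC-like nuclei at -0.23 (-0.39 to -0.07, and 0.06 under TMM, the only sign that turned). In macrophage-like nuclei the mt- sum went from 2157 to 1163 CPM (-0.89, -0.96 to -0.83), in NK cell-like nuclei from 2682 to 1670 CPM (-0.68, -0.74 to -0.63) and in pDC-like nuclei from 1054 to 845 CPM (-0.32, -0.38 to -0.25). Nuclear-encoded molecules per mt- molecule therefore changed from 5.42 to 15.5 in cDC2-like nuclei and from 7.67 to 13.4 in pDC-like nuclei. Isolated nuclei keep few mitochondria, and the free RNA pool also held less mt- RNA at D5, 1836 CPM against 4441 CPM at D0 (-1.27, -1.35 to -1.20); the part of carried-over mitochondria was not tested.

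Not all mt- genes differed by the same factor. In cDC2-like nuclei mt-Co1, the catalytic subunit of complex IV, went from 550 to 263 CPM (-1.06, -1.14 to -0.98). The ATP synthase subunit mt-Atp6 had 223 and 69.1 CPM (-1.69, -1.83 to -1.56), and mt-Nd3 of complex I 26.5 and 6.93 CPM (-1.94, -2.35 to -1.52). The complex I gene mt-Nd5 was at 37.2 and 31.2 CPM (-0.26, -0.54 to 0.04), but it was higher at D5 in cDC1-like nuclei, with 22.6 and 29.6 CPM (0.39, 0.03 to 0.76), in pDC-like nuclei, with 22.7 and 30.4 CPM (0.42, 0.01 to 0.84), and in preDC-like nuclei, where it had 6 UMIs at D0 (1.24, 0.08 to 2.71). Levels are per molecule counted and not per gene length, so they are compared between days and not between genes.

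Gene length ordered the differences over the whole transcriptome. In cDC2-like nuclei the median log2 ratio of all genes was 0.21 for genes that span less than 5 kb, -0.02 for 10 to 20 kb and -0.34 above 100 kb. The oxidative phosphorylation genes are short, and at equal span they were above that course, with medians of 0.41 below 5 kb (26 genes), 0.37 for 5 to 10 kb (34 genes), 0.35 for 10 to 20 kb (14 genes) and 0.27 for 20 to 50 kb (10 genes). In pDC-like nuclei the genes of 20 to 50 kb had a median of -0.04 (12 genes), close to the -0.10 of all genes of that span, while those below 5 kb had 0.58 (25 genes) against 0.17. The Spearman correlation of span and log2 ratio over the oxidative phosphorylation genes was -0.16 in cDC2-like (86 genes) and -0.48 in pDC-like nuclei (87 genes), a description across genes measured in the same libraries. Ndufa6 spans 4153 bases and Uqcr10 2377 bases, whereas Sdha, the lowest in cDC2-like nuclei, spans 27986 bases. Other genes broke this order there: Atp5k, among the 5 lowest, spans 1154 bases, and Ndufv2, among the 5 highest, 22765 bases. The part of gene length in the result was not tested further.

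**Figure D4:**
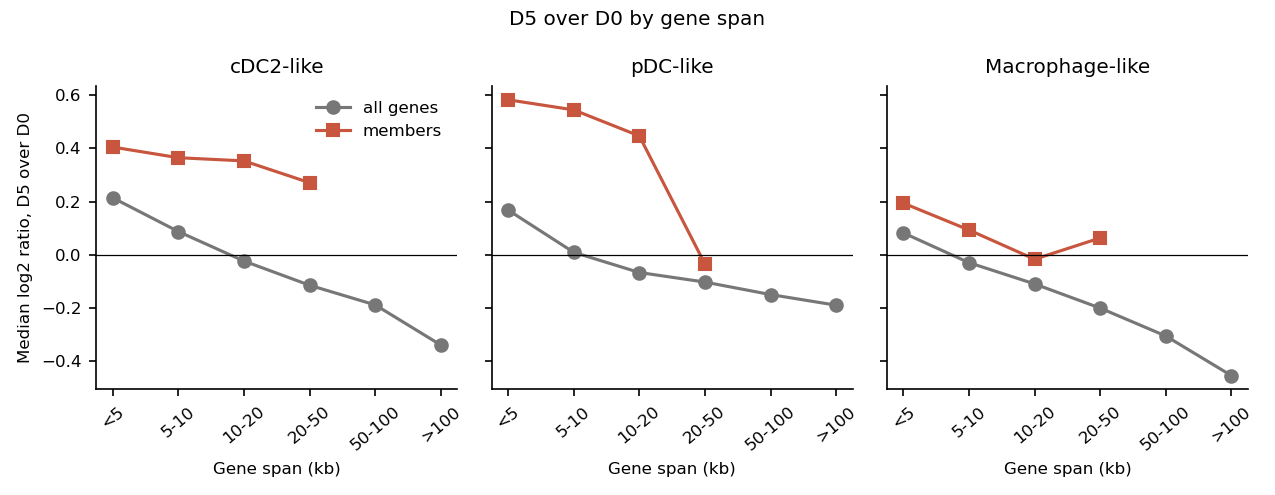
Median log2 ratio, D5 over D0, of all genes (grey circles) and of the oxidative phosphorylation genes (red squares, where at least 10 genes fall in the range) by gene span in kb, in 3 classes. All-gene medians descend with span in each panel; the red squares start above the grey ones below 5 kb, at 0.41 in cDC2-like, 0.58 in pDC-like and 0.19 in macrophage-like nuclei.

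Levels also differed between classes at D0. The ratio of the highest to the lowest of the 8 classes had a median of 2.13 over 88 genes (at least 10 CPM on average over the classes) at D0 and of 1.79 over 87 genes at D5. The same ratio was not counted over all genes, so these medians have no background. The pDC-like class lay below the cDC2-like class for most genes, with 63 of 88 lower at D0 (28.5% of all genes) and 7 higher (47.2% of all genes), and a median log2 difference of -0.49 against 0.26 for all genes. Cytosolic ribosomal protein RNA was also lower in pDC-like nuclei, with a log2 difference of -1.16 (-1.16 to -1.15), and its part in this difference was not tested. Between cDC1-like and cDC2-like nuclei 7 of 87 genes were higher in the former (37.1% of all genes) and 7 lower (18.4%).

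The genes below and the classes compared for them were picked as extremes of these same counts, a choice that the intervals do not allow for. 5 genes are named for the size of their spread at D0. The widest was that of Sdhaf1 (chr7:30321409-30322375), a LYR-motif factor that helps insert iron-sulfur clusters into Sdhb, with 167 CPM in Ccr7+ DC-like and 17.1 CPM in pDC-like nuclei, a ratio of 9.76 (7.15 to 13.4). The other classes had between 17.3 CPM (cDC1-like) and 47.0 CPM (cDC2-like) at D0, so that Ccr7+ DC-like nuclei were alone at the top. At D5 Ccr7+ DC-like nuclei were again the highest, with 171 CPM. NK cell-like nuclei were then the next highest with 83.9 CPM, ahead of cDC2-like nuclei with 48.35 CPM. The free RNA pool held 76.2 CPM and 77.5 CPM, below the Ccr7+ DC-like level and above the rest at D0. E130208F15Rik, a neighbouring gene, had at most 9 UMIs in any class at D0.

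Cox6b2, known as the testis form of a complex IV subunit, was at 28.8 CPM at D0 and 30.3 CPM at D5 in cDC2-like nuclei and below 16 CPM in each of the 7 other classes at either day. Its ratio between cDC2-like and NK cell-like nuclei was 6.67 at D0 (3.48 to 14.3) and 3.76 at D5 (2.38 to 6.30). The free RNA pool held 34.7 and 41.1 CPM, above every class, and its part in the lower classes was not tested. Ndufaf4, an assembly factor of complex I, was highest in pDC-like nuclei (45.9 and 46.7 CPM) and lowest in Ccr7+ DC-like nuclei (8.93 and 12.4 CPM), a ratio at D0 of 5.14 (2.32 to 14.2). It was among the few genes whose pDC-like level exceeded the cDC2-like level, of 22.2 CPM at D0. Ndufaf6, another such factor, was at 21.0 CPM in cDC1-like and 2.98 CPM in Ccr7+ DC-like nuclei at D0, a ratio of 7.04 whose wide interval (1.88 to 59.2) reflects few molecules. Sdhd was highest at D0 in macrophage-like nuclei (106 CPM) and lowest in pDC-like nuclei (31.9 CPM), a ratio of 3.33 (2.62 to 4.24), and by D5 cycling cDC1-like nuclei had the highest level (92.6 CPM).

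**Figure D5:**
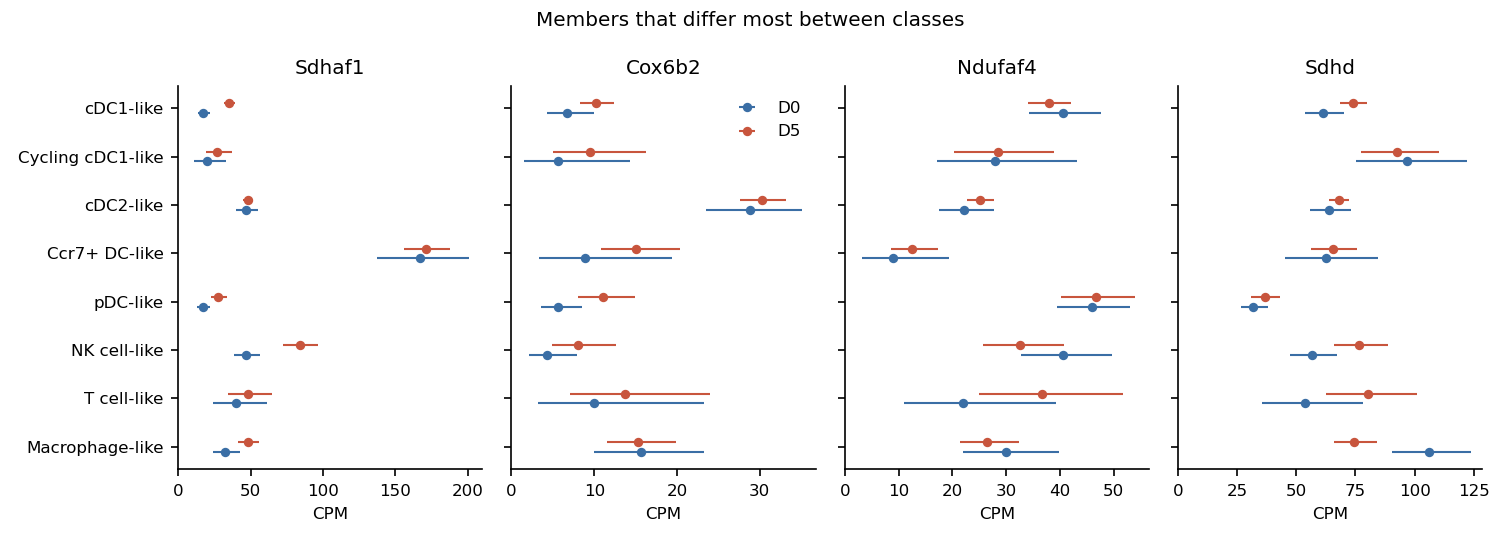
CPM of Sdhaf1, Cox6b2, Ndufaf4 and Sdhd in 8 classes at D0 (blue) and D5 (red), with 95% counting intervals. Sdhaf1 lies near 170 CPM in Ccr7+ DC-like nuclei at both days and below 90 CPM elsewhere, and Cox6b2 is highest in cDC2-like nuclei.

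Open chromatin at the start sites of these genes differed less between days than the RNA. A region shared by both libraries was found at the start of 92 of the 96 genes. Levels are in FPM, fragments in every 1000000 fragments of the class that fell in regions shared by both libraries. Summed over the genes, cDC2-like nuclei had 4267 FPM at D0 and 4308 at D5, a log2 ratio of 0.01 (-0.01 to 0.03), and pDC-like nuclei 3874 and 3859 (-0.01, -0.03 to 0.02). Over the 10 classes the log2 ratios lay between -0.01 and 0.07, with intervals above 0 in cDC1-like (0.02, 0.002 to 0.05), preDC-like, Ccr7+ DC-like, NK cell-like and macrophage-like nuclei (0.06, 0.03 to 0.09), and the median gene had 0.01 in cDC2-like nuclei, against 0.01 for all genes with such a region. At Ndufa6 (region chr15:82353868-82354774, mm10) the cDC2-like values were 66.0 and 70.0 FPM (0.08, -0.08 to 0.25) and the pDC-like values 64.0 and 66.9 (0.06, -0.11 to 0.23). Ndufa11 had 77.3 and 86.8 FPM in cDC2-like nuclei (0.17, 0.02 to 0.32) and Uqcrc1 50.7 and 39.4 FPM in macrophage-like nuclei (-0.37, -0.70 to -0.03), both in the direction of the RNA. Against that direction, Uqcrc1 had 63.3 and 41.1 FPM in T cell-like nuclei (-0.62, -1.15 to -0.10), where its RNA had 0.30 (-0.20 to 0.82), and Atp5b 50.9 and 67.3 FPM in macrophage-like nuclei (0.40, 0.10 to 0.70), where its RNA was lower. At Sdha (region chr13:74349781-74350710) accessibility was lower at D5 in cDC1-like nuclei, 44.9 and 37.1 FPM (-0.27, -0.49 to -0.05), and in cDC2-like nuclei, 51.6 and 44.0 (-0.23, -0.42 to -0.04). In the 8 other classes the interval held 0, with log2 ratios of -0.16 in pDC-like, -0.01 in NK cell-like and 0.08 in macrophage-like nuclei, where Sdha RNA was also lower, and of 0.18 in Ccr7+ DC-like nuclei. Of the 98 regions 44 lay near several genes, so their fragments do not belong to 1 gene.

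The genes with the widest spread between classes had unlike chromatin. At Sdhaf1 (region chr7:30321970-30322815) Ccr7+ DC-like nuclei had 54.2 FPM at D0, close to the 53.9 of cDC2-like nuclei and below the 63.9 of NK cell-like nuclei, so accessibility did not set them apart as RNA did. At Cox6b2 (region chr7:4752576-4753393) cDC2-like nuclei had 23.2 FPM, pDC-like nuclei 9.37 and NK cell-like nuclei 5.03 at D0. Between these lay Ccr7+ DC-like nuclei with 18.3, cDC1-like nuclei with 15.85 and macrophage-like nuclei with 14.6. Cycling cDC1-like nuclei, low in RNA, had 22.9 from only 29 fragments, and did not separate from cDC2-like nuclei as they did in RNA. PreDC-like nuclei, not read gene by gene in RNA, had 23.7 from 20 fragments. At D5 cDC2-like nuclei had 25.8 FPM, cycling cDC1-like nuclei 25.6 and Ccr7+ DC-like nuclei 25.3. The promoters of Sdhaf1 and Cox6b2 are shown because these genes carry the clearest class differences. They lie on the minus strand at chr7:30322326-30322625 and chr7:4753045-4753344 and have no capitals, since none of the 3 words searched occurs in them.
Sdhaf1: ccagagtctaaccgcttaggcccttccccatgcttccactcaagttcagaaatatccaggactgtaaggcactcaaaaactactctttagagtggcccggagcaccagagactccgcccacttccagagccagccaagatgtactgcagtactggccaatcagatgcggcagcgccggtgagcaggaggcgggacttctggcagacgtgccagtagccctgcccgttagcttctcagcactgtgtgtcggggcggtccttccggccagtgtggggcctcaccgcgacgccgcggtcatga
Cox6b2: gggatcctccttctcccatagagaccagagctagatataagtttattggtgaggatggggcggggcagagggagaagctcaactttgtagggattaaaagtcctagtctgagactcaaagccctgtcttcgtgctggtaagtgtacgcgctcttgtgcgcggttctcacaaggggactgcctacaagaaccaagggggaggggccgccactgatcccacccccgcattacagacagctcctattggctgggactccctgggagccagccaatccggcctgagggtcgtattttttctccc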

How the data were processed

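The deposited RNA and joint matrices held raw counts (UMIs per gene, and for open chromatin cut sites per peak) that the authors had made without normalization. The submitters' processing notes name Cell Ranger ARC 2.0.2 and build mm10, and the headers of the joint matrices name the same tool, while the headers of the RNA matrices name Cell Ranger 6.0.2. Whether intronic reads were counted is not given in the sources used here. RNA and chromatin layers were joined by identical RNA counts at both days, which matched all 16260 barcodes at D0 and all 27873 at D5. At D0 the barcode sequences could be compared as well, and all 16260 were the same. Cut sites were divided by 2 to give fragments. This is approximate, since only 80.9% of the peak counts at D0 and 83.2% at D5 were even. The intervals of the open chromatin ratios are therefore approximate too.

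Kept nuclei had 1000 UMIs or more, of which mt- genes took 10% or less. Scrublet scores were computed per library (expected rate 0.1), and nuclei at or above 0.2 were removed, a limit set with the scores in view. Both libraries were clustered together in scanpy 1.11.5 (2000 variable genes without the gene lists described, 30 components, 15 neighbours, Leiden resolution 1.0). Names needed 3 or more markers of 1 class at 2-fold or more over the other clusters, a rule whose limits were chosen after the clusters had been seen. This left 7 of 21 clusters without a name, and 2 named ones of few nuclei were not used.

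UMIs were summed per class and day and divided by the class total. Intervals are exact Poisson (levels) and exact conditional binomial (ratios), and the script was tested on simulated data. With 1 library a day there was no test. Alternatives were edgeR 4.0.16 TMM factors, a total without the gene lists, other nucleus filters, another cluster resolution, another fold and no low filter. Values were printed for core subunits and isoform pairs, for the 5 highest and 5 lowest ratios of each class (at least 100 UMIs), with the leading examples given, and for the 5 widest spreads between classes. The members and lists were chosen with earlier results of these data known. Of 98 symbols that fit the name stems, 1 pseudogene was left out and 1 is not reported here. Coordinates are 1-based. RefSeq GRCm38.p6 tables gave gene spans for all 96 genes, and the spans of 30 overlap another gene, so their reads could be shared. Start-site regions are peaks merged over both libraries within 1 kb of a start site in the files or in the RefSeq promoter.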

Additional observations from a re-analysis of the deposited data

Results flagged for a closer look

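The summed complexes and the genes chosen for printing were searched. Some were lower at D5 in 1 class, with the whole interval below 0, while the interval lay above 0 in at least 1 other class. The difference between classes was not tested. Most of them concern macrophage-like nuclei. The log2 ratio of the summed subunits of complex II was -0.286 there, while 1 other class was higher. Cox8a stood at -0.262 while 7 other classes were higher, and Atp5g3 at -0.218 while 5 others were. Atp5b had -0.37 and Sdhd -0.508, each with 2 other classes higher. Atp5k had -0.503 and Ndufv1 -0.438, each with 1 other class higher. Ndufa5, which was not among the genes searched, had -0.338 with 4 other classes higher. Ndufs1, the largest iron-sulfur subunit of complex I, had -0.589 in macrophage-like and -0.512 in NK cell-like nuclei and was higher in 1 other class, the cDC2-like nuclei. Under TMM scaling the macrophage-like values were 0.02 for complex II, 0.05 for Cox8a and 0.09 for Atp5g3, which turned their sign, and -0.06 for Atp5b, -0.20 for Sdhd, -0.19 for Atp5k, -0.13 for Ndufv1 and -0.28 for Ndufs1, which did not. In the same class the median of all genes was -0.21 before that scaling, and the sums of the regulator list and of the glycolysis genes were also lower.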

How the results depend on the processing

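The log2 ratio of the summed genes, D5 over D0, stayed above 0 under every alternative tried in cDC2-like (0.343 to 0.632), cDC1-like (0.394 to 0.74), pDC-like (0.469 to 0.633) and NK cell-like nuclei (0.364 to 0.594). Values outside the counting interval were, under TMM factors, 0.632, 0.74, 0.633 and 0.594 in this order of classes; with a scaling total without the oxidative phosphorylation, mt- and cytosolic ribosomal protein genes, 0.496, 0.55, 0.564 and 0.51; and with a minimum of 2000 UMIs, 0.343, 0.394, 0.574 and 0.543. Without doublet removal the cDC2-like value was 0.353. Clusters taken alone, an alternative chosen after seeing the data, gave 0.401 and 0.35 for the cDC2-like clusters and 0.497 for the smaller cDC1-like cluster. The NK cell-like nuclei formed no class of their own at resolution 0.5, so that setting gave no value. The small difference between cDC1-like and cDC2-like nuclei depended on the processing: at D0, -0.024 became 0.009 without doublet removal, 0.041 at resolution 0.5, -0.187 under TMM factors and -0.055 with the reduced total; at D5, 0.017 became 0.087, 0.075, -0.089 and -0.001. The cause was not tested. The count of genes higher at D5 in cDC2-like nuclei, 48, was 78 under TMM factors, which also moved the median of all genes from -0.12 to 0.13, and 7 at 1.5-fold, and lay between 44 and 67 otherwise. The count of lower genes, 0, became 1 without the filter on low levels. No paired analysis was possible because each day is 1 library. Counting intervals are wide for genes of few molecules, such as Ndufaf6 in Ccr7+ DC-like nuclei, and no interval covers differences between animals.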
